A study of Mus musculus with 4 samples.

Results

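The Hox genes encode homeodomain transcription factors and lie in 4 clusters, Hoxa, Hoxb, Hoxc and Hoxd. Members were taken as genes whose platform annotation symbol is Hox, a cluster letter a to d and a number, read from probe sets that carry 1 symbol. Of 39 mouse Hox genes listed, 36 were measured in this way, out of 22180 named genes in all. They were 9 Hoxa, 10 Hoxb, 9 Hoxc and 8 Hoxd genes. The other 3 were not analysed here. Only Hoxb5 had more than 1 such probe set, of which the brighter was used.

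Within each cluster the genes are numbered in their order along the chromosome, and genes of different clusters with the same number form a paralog group. In the embryo low-numbered genes act toward the head and high-numbered genes toward the tail. Polycomb repressive complex 2, whose enzyme EZH2 trimethylates lysine 27 of histone H3 (H3K27me3), is a textbook repressor of Hox clusters outside their domains of expression. Hox proteins bind DNA together with the PBX and MEIS/PKNOX families of homeodomain cofactors, and Hoxa9, Hoxb9 and Hoxd9 act together in the growth of the mammary gland in pregnancy.

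All cells came from lines that were established from tumours of MMTV-NIC mice (female, FVB strain), where the mouse mammary tumour virus promoter drives activated ErbB2 and Cre recombinase from the same transcript in mammary epithelium. The treated group received 2 µM GSK126 (labelled GSK-126), an inhibitor of EZH2, for 96 h and the control group received the vehicle DMSO, with 2 arrays in each. The comparison asks how transcription responds to that inhibitor. Separate lines, separate cultures and repeat preparations cannot be told apart from the labels, so the p-values refer to the spread among the 4 arrays, part of which may be technical. Levels are log2 expression values as mean ± SD (n = 2 arrays), and a change is the GSK126 mean minus the DMSO mean on that log2 scale, with the standard error (SE) that limma gives.

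The labelled epithelial origin was visible in the markers. Of 8 luminal epithelial markers 7 stood above 4.89, the 95th percentile of the mean level of 1394 olfactory and vomeronasal receptor genes, which mammary cells are not known to use. The luminal keratin gene Krt18 had a mean of 11.67 and the adhesion gene Epcam 10.56, while Krt19 (4.71) did not reach that level. None of 5 immune and none of 5 endothelial markers reached it, 1 of 5 adipocyte markers did (Plin1, 5.02), and so did 3 of 5 basal markers and 5 of 8 fibroblast markers, which for the latter had means from 3.39 to 5.99. The basal and fibroblast shares, 60% and 62.5%, lay near the 57.1% of all named genes above that level. Fewer cells of a type and less RNA per cell cannot be told apart in bulk RNA. Of the markers tested only the oxytocin receptor gene Oxtr, listed as basal, passed the threshold described below (change -0.75, adjusted p = 0.0479 in limma). The basal markers did not move together. Of the 5, 2 had a lower mean (Oxtr and Krt14, -0.51) and 3 a higher one (Krt17 0.33, Trp63 0.12, Acta2 0.07). Their median change was 0.07. The call of Oxtr was lost without the intensity trend in the variance (adjusted p = 0.236 in limma) and with the replicate block (0.144). Those fits called 0 and 10 genes of all, against 96 in the main fit. It was kept with a robust prior, without genes under the 40th percentile of level, and with averaged probe sets (adjusted p = 0.0393, 0.0213 and 0.0472 in limma). Centring and quantile normalization also kept it (0.0291 and 0.0491). With any array left out it was lost, but a group then rests on a single array, and the change ran from -0.83 to -0.68. Any 2 arrays correlated at 0.981 to 0.988.

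No Hox gene changed past the threshold, an adjusted p of 0.05 in limma over all named genes, and 24 of the 36 had a mean at or below the receptor level. Of the 36 genes, 0 rose and 0 fell by that test, which called 0.433% of all genes, and the smallest adjusted p was 0.507. At an unadjusted p under 0.05 the count was also 0, against 10.6% of all genes. The median change was -0.06 (interquartile range -0.15 to 0.03), beside -0.01 over all named genes. The Hox median moved to -0.15 without GSK126 replicate 1 and to 0.002 without GSK126 replicate 2. It was -0.12 both with centred arrays and after quantile normalization, beside -0.06 and -0.02 over all named genes. Single changes ran from -0.34 for Hoxd3 to 0.37 for Hoxd10. A change under 0.2 in size was seen in 28 of 36 genes and in 70% of all genes.

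Taken 1 gene at a time, the intervals limit how large a rise in the deposited values could have been missed. The upper 95% bound of the change was under 1, a 2-fold rise, for 36 of 36 Hox genes, as for 98% of all genes. The highest bound was that of Hoxd10, at 0.98, and the lowest bound was -0.79, for Hoxd9. Hoxd10 passed 1 when the DMSO replicate 1 array was left out (upper bound 1.28), while the other 35 genes stayed under it. Its bound was also over 1 without GSK126 replicate 1 (1.24), without GSK126 replicate 2 (1.25) and without the intensity trend in the variance (1.06). On a log2 scale with array background, changes of dim probe sets are understated, so these bounds apply to the deposited values rather than to RNA amounts.

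**Figure D1:**
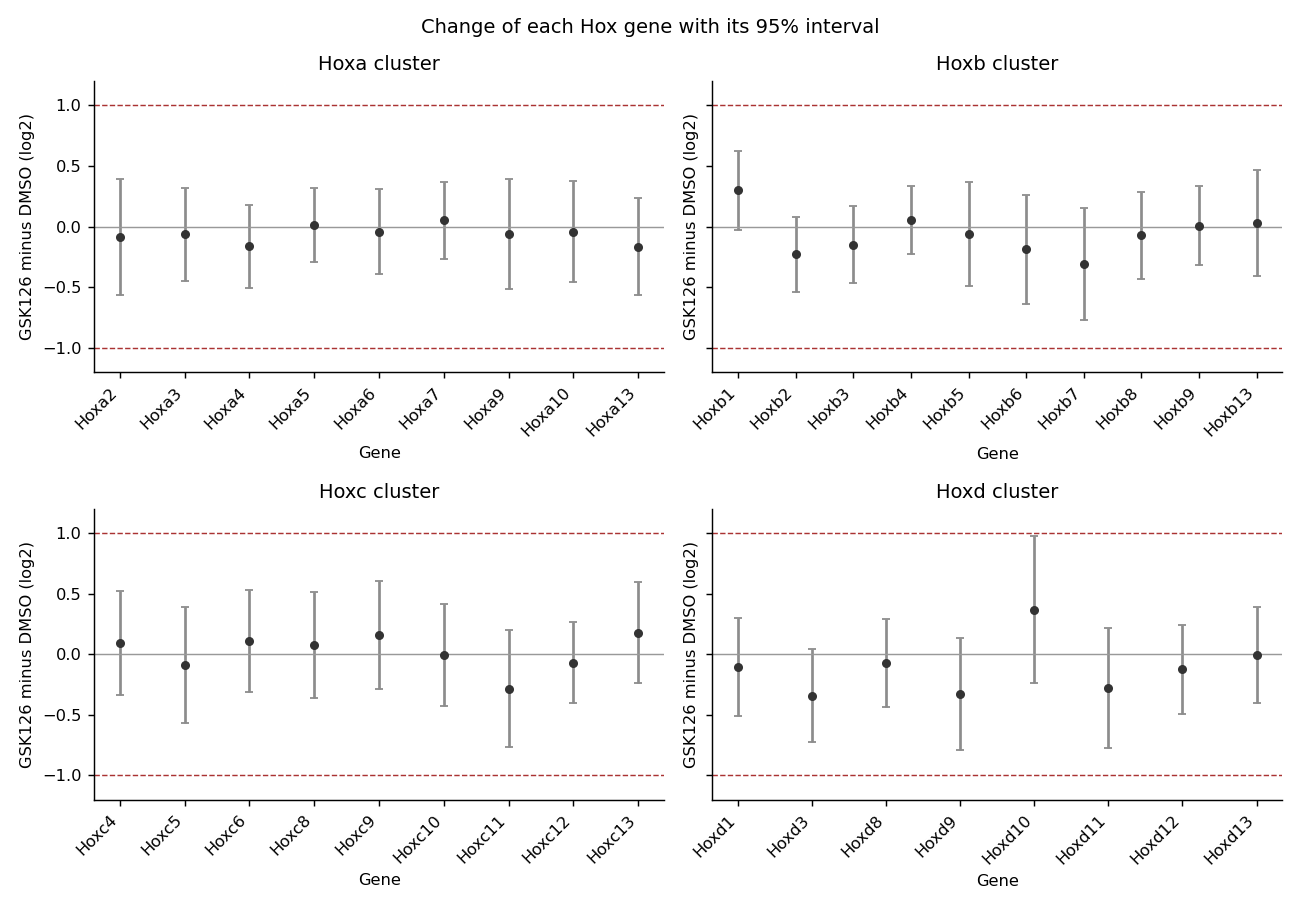
Change of each measured Hox gene, GSK126 minus DMSO on the log2 scale (vertical axis), by cluster and in order of gene number. Points are estimates from 2 arrays a group, bars are 95% intervals from limma, and dashed lines mark a 2-fold change; no interval crosses either dashed line, and that of Hoxd10 ends nearest, at 0.98.

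Most members lay below the median level of all genes. Their means over the 4 arrays ran from 3.16 (Hoxb7) to 5.93 (Hoxa4), with a median of 4.34, against 5.28 for all named genes. Of the 36, 7 lay above that median of all genes and 0 above their 75th percentile of 7.42. In 12 of 36 (33.3%) the mean was above the receptor level of 4.89, which 57.1% of all named genes passed. These 12 comprised 4 Hoxa, 6 Hoxb, 0 Hoxc and 2 Hoxd genes. By gene number, 3 of 7 genes in paralog groups 1 to 3 were above it, 7 of 14 in groups 4 to 8 and 2 of 15 in groups 9 to 13. Since signal depends on the probes of each set, genes are not ranked against each other, and a value under the receptor level does not show that a transcript was absent.

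**Figure D2:**
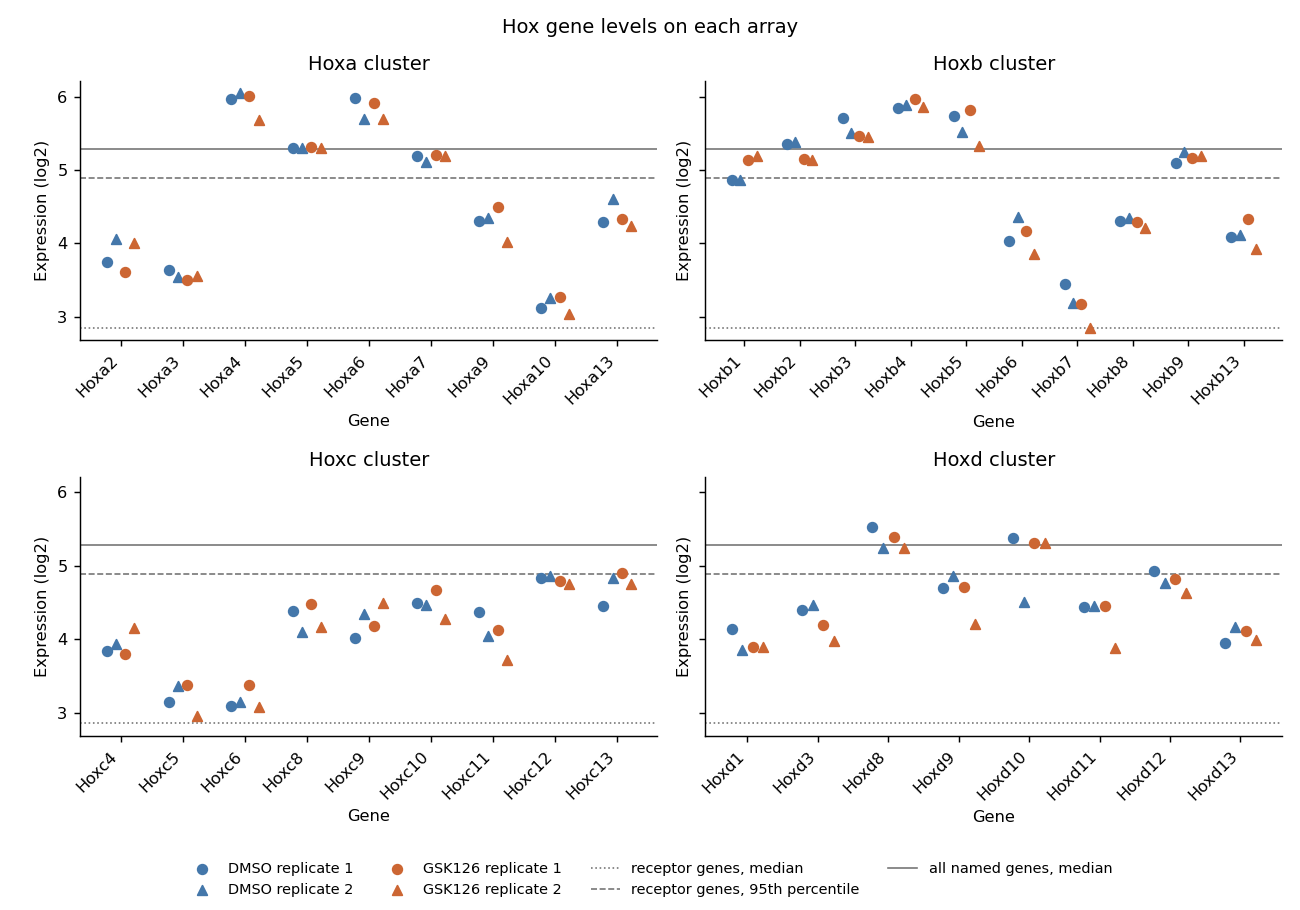
Log2 expression (vertical axis) of the 36 measured Hox genes on each of the 4 arrays, by cluster, with blue for DMSO, orange for GSK126, circles for replicate 1 and triangles for replicate 2. Dotted and dashed lines mark the median (2.85) and 95th percentile (4.89) of receptor genes and the solid line the median of all named genes (5.28); every Hoxc gene has its mean under the dashed line.

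Promoter sequence was not used to choose the members, and the promoters at hand varied widely in CpG content. RefSeq promoter sequences (GRCm38.p6, 250 bases before to 50 bases after the start site) were at hand for 20 of the 36 genes, as 22 promoters. Coverage was uneven, with 8 Hoxa, 3 Hoxb, 1 Hoxc and 8 Hoxd genes. Their median GC content was 58.7%, with a median of 17 CpG dinucleotides (the letters CG, the same on both strands) and an observed over expected CpG ratio of 0.63. Over all 32851 promoters these medians were 52.7%, 7 and 0.38, and 94.6% held at least 1 CG. Receptor gene promoters had medians of 35.7%, 1 and 0.11. A ratio over 0.6 with a GC content over 50% was found in 10 of 22 Hox promoters (45.5%), in 33.3% of all promoters and in 0.0786% of receptor promoters. The difference between Hox and all promoters was not tested. The receptor genes that set the reference level therefore differ from Hox genes in base composition at their promoters, and the base composition of the probes was not examined.

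The Hoxa5 and Hoxd3 promoters are shown because the first belongs to the member that differed least between arrays and the second to the member with the largest decrease in mean. Both run 5′ to 3′ over the 250 bases before the start site, with CG in capitals (28 in Hoxa5 and 12 in Hoxd3). They lie on the minus strand at chr6:52204588-52204837 and on the plus strand at chr2:74711743-74711992 of GRCm38.p6.
Hoxa5: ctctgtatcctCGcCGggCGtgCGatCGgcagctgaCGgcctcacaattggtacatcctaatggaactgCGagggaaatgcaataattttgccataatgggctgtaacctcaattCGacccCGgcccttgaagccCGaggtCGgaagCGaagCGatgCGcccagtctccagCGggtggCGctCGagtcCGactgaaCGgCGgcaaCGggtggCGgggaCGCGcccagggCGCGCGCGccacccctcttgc
Hoxd3: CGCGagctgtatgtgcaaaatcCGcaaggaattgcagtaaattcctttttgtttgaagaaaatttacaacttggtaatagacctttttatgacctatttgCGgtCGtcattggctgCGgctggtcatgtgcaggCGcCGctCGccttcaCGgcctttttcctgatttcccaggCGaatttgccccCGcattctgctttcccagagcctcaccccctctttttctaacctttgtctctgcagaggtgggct

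The Hoxb1 promoter is shown because this gene had the smallest p of the family, and because Hoxb1 is a textbook case of a Hox gene that acts on its own regulatory region with a PBX partner. It covers the 250 bases before the start site on the plus strand, chr11:96365508-96365757 of GRCm38.p6, and the capitals mark a match to the paired PBX and Hox recognition sequence in the form TGAT, any 2 bases, AT.
Hoxb1: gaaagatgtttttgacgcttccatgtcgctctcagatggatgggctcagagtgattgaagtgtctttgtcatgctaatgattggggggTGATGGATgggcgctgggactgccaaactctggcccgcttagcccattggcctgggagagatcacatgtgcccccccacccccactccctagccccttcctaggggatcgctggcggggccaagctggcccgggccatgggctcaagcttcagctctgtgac
That motif, searched on both strands of the 300-base promoters, was found in 4 of 22 Hox promoters (18.2%), namely those of Hoxa2, Hoxb1, Hoxb8 and Hoxd11, and in 8.85% of all promoters. A match of letters does not show binding.

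**Figure D3:**
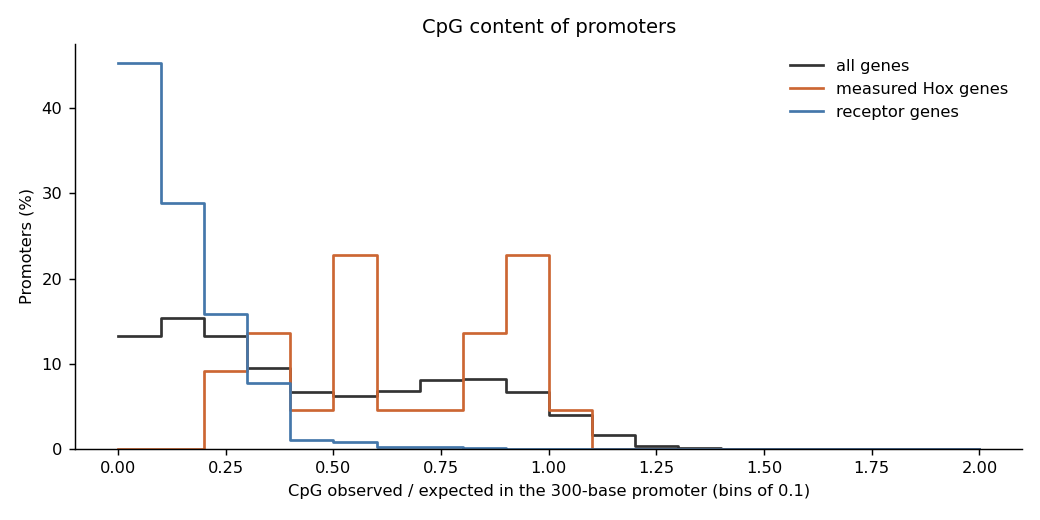
Share of promoters (vertical axis, percent) by observed over expected CpG ratio (horizontal axis, bins of 0.1) for 22 promoters of measured Hox genes, 1272 of receptor genes and 32851 of all genes. Receptor promoters pile up near 0 with a median of 0.11, while the Hox promoters spread from 0.26 to 1.02.

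In the Hoxa cluster 7 of 9 means were lower with GSK126, with changes from -0.17 to 0.05 and a median of -0.06. The 4 genes above the receptor level were the neighbours Hoxa4 to Hoxa7. Hoxa4, which patterns the neck and upper trunk, read 5.97 and 6.05 in DMSO and 6.01 and 5.68 with GSK126 (change -0.16, SE 0.15, adjusted p = 0.763 in limma). Hoxa5, which acts in lung and skeletal patterning, had nearly the same value on every array, at 5.31 and 5.30 in DMSO and 5.32 and 5.31 with GSK126. Hoxa6 was at 5.98 and 5.70 in DMSO and 5.91 and 5.69 with GSK126, so that the replicates differed more than the groups. Hoxa7 read 5.19 and 5.11 in DMSO and 5.21 and 5.20 with GSK126, and its groups did not overlap although the change was 0.05 (SE 0.14), with the sign turned by centring (-0.0014) and by quantile normalization (-0.0045). The other 5 genes had means from 3.17 (Hoxa10) to 4.37 (Hoxa13). The median of the cluster was -0.15 without GSK126 replicate 1, 0.02 without GSK126 replicate 2 and -0.02 without DMSO replicate 2.

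The Hoxb cluster held the member with the smallest p, Hoxb1, which sets the identity of a hindbrain segment. Hoxb1 read 4.87 and 4.86 in DMSO and 5.14 and 5.19 with GSK126 (4.87 ± 0.003 and 5.16 ± 0.03). Both GSK126 arrays were above both DMSO arrays, but the change of 0.30 (SE 0.14) did not pass (adjusted p = 0.507 in limma, 95% interval -0.03 to 0.62). Its neighbours went the other way. Hoxb2, a hindbrain gene, read 5.36 and 5.39 in DMSO and 5.15 and 5.14 with GSK126 (change -0.23, SE 0.13, adjusted p = 0.601 in limma), and Hoxb3 read 5.70 and 5.51 against 5.46 and 5.45 (change -0.15, SE 0.14). Both had GSK126 arrays below both DMSO arrays, and neither passed the threshold.

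Further along the cluster, Hoxb4, known for expanding blood stem cells when overexpressed, read 5.84 and 5.88 in DMSO and 5.97 and 5.86 with GSK126. Hoxb9, one of the genes of mammary growth, read 5.10 and 5.25 in DMSO and 5.17 and 5.19 with GSK126, a change of 0.005 (95% interval -0.32 to 0.33). Hoxb5 read 5.74 and 5.52 in DMSO and 5.81 and 5.33 with GSK126 (change -0.06), whereas its other probe set had a change of 0.13, so that the direction differed between probe sets. Hoxb7, which has been linked to breast cancer, was under the receptor level, at 3.45 and 3.18 in DMSO and 3.18 and 2.84 with GSK126 (change -0.31, SE 0.20, adjusted p = 0.640 in limma). The replicates of Hoxb7 lay about as far apart as the groups. Over the 10 genes of the cluster 6 means were lower and the median change was -0.07, which became -0.17 without GSK126 replicate 1, -0.02 without GSK126 replicate 2, -0.04 without DMSO replicate 2 and -0.03 when the probe sets of a gene were averaged.

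No Hoxc gene had a mean above the receptor level in these arrays, with means from 3.17 (Hoxc6) to 4.81 (Hoxc12). This was the cluster with a median change above 0, at 0.08, and 5 of 9 means were higher with GSK126. The sign depended on single arrays, since the median was -0.003 without DMSO replicate 1, 0.02 without DMSO replicate 2, -0.08 without GSK126 replicate 1 and 0.12 without GSK126 replicate 2. Centring the arrays on their medians gave 0.02. The changes ran from -0.28 for Hoxc11, a limb and posterior trunk gene, to 0.18 for Hoxc13, which acts in hair and nail. Hoxc12 was the only member whose groups did not overlap, and its change was -0.07.

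The Hoxd cluster held both the largest decrease and the largest increase in mean, and 7 of 8 means were lower with GSK126. Hoxd3, which shapes the first neck vertebrae, read 4.39 and 4.47 in DMSO and 4.20 and 3.98 with GSK126, both below both controls (change -0.34, SE 0.16, adjusted p = 0.520 in limma, 95% interval -0.73 to 0.04). Hoxd9, of the mammary growth group, read 4.70 and 4.86 in DMSO and 4.71 and 4.20 with GSK126 (change -0.33, SE 0.20). The lower mean of Hoxd9 came from GSK126 replicate 2, since replicate 1 lay within the DMSO values. Hoxd11, a gene of the forearm and kidney, read 4.44 and 4.45 in DMSO and 4.45 and 3.88 with GSK126, so that replicate 2 alone was low.

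Hoxd10, which acts in the hindlimb and its motor neurons, read 5.38 and 4.51 in DMSO and 5.32 and 5.31 with GSK126. Its higher mean with GSK126 (change 0.37, SE 0.26, adjusted p = 0.678 in limma) came from 1 low DMSO array, and its range over the arrays, 0.87, was the largest of the family. The change was 0.80 without DMSO replicate 1 and -0.07 without DMSO replicate 2. Hoxd8 read 5.54 and 5.25 in DMSO and 5.39 and 5.25 with GSK126 (change -0.07, SE 0.15), with overlapping groups. The median of the cluster was -0.12, and it was -0.23 without DMSO replicate 2, -0.18 without GSK126 replicate 1 and -0.02 without GSK126 replicate 2. Centring gave medians of -0.12 for Hoxa, -0.12 for Hoxb and -0.17 for Hoxd. Differences between the 4 cluster medians were not tested.

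Grouped by number, the median change was -0.11 over the 7 genes of paralog groups 1 to 3, -0.05 over the 14 of groups 4 to 8 and -0.04 over the 15 of groups 9 to 13. Of these, the median of groups 1 to 3 stayed below 0 with any array left out (-0.21 to -0.05). That of groups 4 to 8 was -0.13 without GSK126 replicate 1, 0.04 without DMSO replicate 1 and 0.04 without GSK126 replicate 2, -0.11 with centred arrays and -0.02 when the probe sets of a gene were averaged. That of groups 9 to 13 was -0.18 without GSK126 replicate 1 and 0.01 when replicate 2 was left out instead, and -0.09 and -0.02 without DMSO replicate 1 and 2, and -0.10 with centred arrays. All measured paralogs had a lower mean with GSK126 in group 2 (Hoxa2 and Hoxb2), group 3 (Hoxa3, Hoxb3 and Hoxd3), group 11 (Hoxc11 and Hoxd11) and group 12 (Hoxc12 and Hoxd12). In group 2 this rested on single arrays, since Hoxa2 was at 0.07 without DMSO replicate 2 and at 0.11 without GSK126 replicate 1, and in group 11 Hoxd11 was at 0.0091 without GSK126 replicate 2. In the other 9 groups the paralogs differed in sign, as in group 1, where Hoxb1 was at 0.30 and Hoxd1 at -0.11. In group 9, the mammary growth genes Hoxa9 (-0.06), Hoxb9 (0.005) and Hoxd9 (-0.33) did not pass, nor did Hoxc9 (0.15).

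Many members were at their lowest on GSK126 replicate 2. Of 36 Hox genes, 21 (58.3%) had their lowest value there, against 31.1% of all named genes and 12.0% of receptor genes, and only 3 had it on GSK126 replicate 1. The median Hox level was 4.42 and 4.47 on the DMSO arrays, 4.49 on GSK126 replicate 1 and 4.22 on GSK126 replicate 2. By cluster, the median was lowest on that array for Hoxa (4.23) and Hoxd (4.09), but not for Hoxc (4.17, against 4.10 on DMSO replicate 2). For Hoxb the median was highest there (5.16). The mean level, however, was lowest on GSK126 replicate 2 in every cluster, at 4.53 (Hoxa), 4.70 (Hoxb), 4.04 (Hoxc) and 4.39 (Hoxd). Over all probe sets the array medians were 4.74, 4.73, 4.79 and 4.78. The groups did not overlap for 8 of 36 Hox genes, 2 higher and 6 lower, whereas this held for 40.1% of all genes (18.2% higher and 21.8% lower). Means were lower with GSK126 in 24 of 36 genes, beside 52% of all genes. Of the 24 genes at or below the receptor level, 18 had a lower mean (median change -0.07). Of the 12 above it, 6 were lower and 6 higher (median change -0.02). The count of lower means over all 36 was 18 without GSK126 replicate 2, 27 without GSK126 replicate 1 and 29 when the arrays were centred. The median change over all named genes moved too, to 0.005, -0.03 and -0.06 in those fits, and their share of lower means was not taken.

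**Figure D4:**
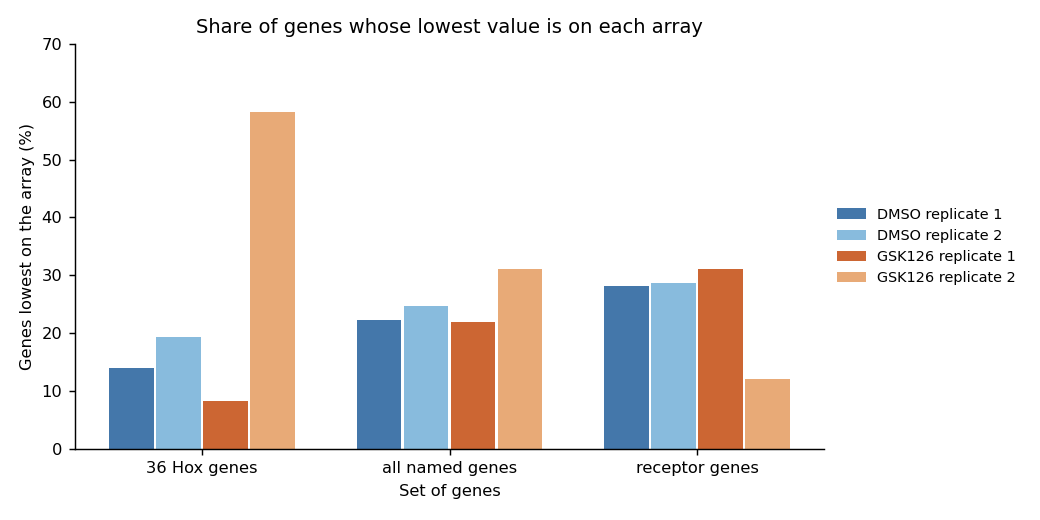
Share of genes (vertical axis, percent) whose lowest value over the 4 arrays fell on each array, for the 36 Hox genes, the 22180 named genes and the 1394 receptor genes. GSK126 replicate 2 was the lowest array for 58.3% of Hox genes, 31.1% of all named genes and 12.0% of receptor genes.

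**Figure D5:**
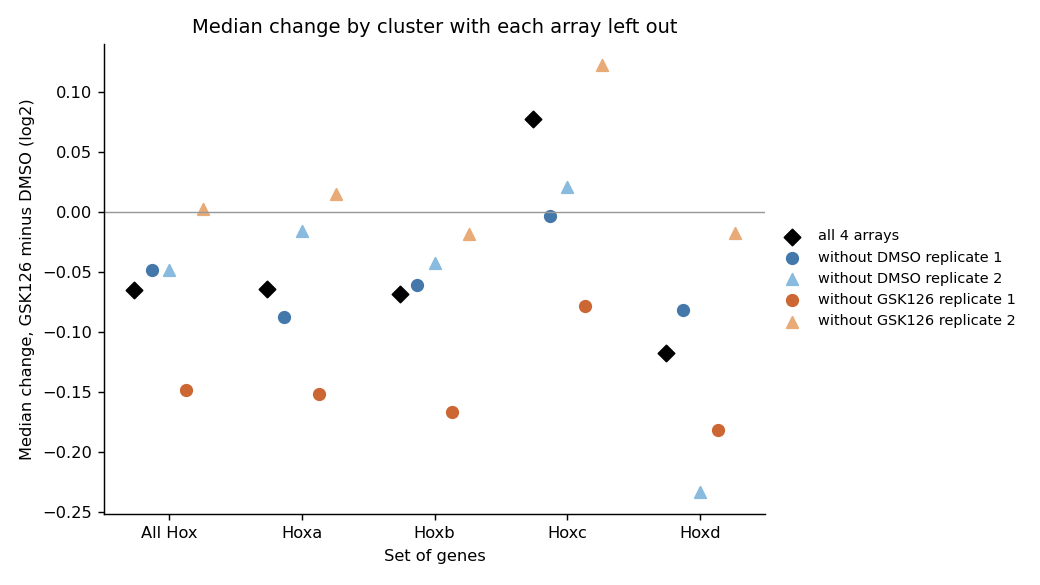
Median change, GSK126 minus DMSO on the log2 scale (vertical axis), of all Hox genes and of each cluster, with all 4 arrays (black) and with each array left out. The median of all Hox genes lies lowest, at -0.15, without GSK126 replicate 1 and highest, at 0.002, without GSK126 replicate 2.

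Genes that lie within or beside the clusters were also examined, 17 of 28 listed being measured. None passed the threshold in limma, beside 0.433% of all genes. At an unadjusted p under 0.05 in limma the count was 0, beside 10.6% of all genes. The median change was -0.03. Of the 17, 8 had a mean above the receptor level. Among these were the mitochondrial enzyme gene Hibadh near Hoxa (8.38 in DMSO and 8.36 with GSK126) and the mitochondrial import gene Mtx2 near Hoxd (8.94 and 8.92). Other flanking genes had means under it, such as Skap1 (4.79) and Ttll6 (4.29). Of the homeobox genes at the cluster ends, Evx1 was at 4.99 and 4.98, and Evx2 read 4.84 and 5.15 in DMSO and 4.99 and 4.24 with GSK126 (change -0.38, SE 0.25). Hotair, a long noncoding RNA of the Hoxc cluster studied as a partner of Polycomb, read 4.62 and 4.55 in DMSO and 5.07 and 4.39 with GSK126. The smallest p among these genes were those of Smug1 (-0.29, SE 0.12, adjusted p = 0.479 in limma) and Cbx5 (-0.20), both near Hoxc.

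The clusters also hold miRNA genes, whose mature sequences are shown (RefSeq, GRCm38.p6) with the seed, bases 2 to 8, in capitals, because they repress targets by seed and some of those targets are Hox mRNAs. Mir196a-1 in Hoxb and Mir196a-2 in Hoxc give the same mature miRNA.
miR-10b-5p: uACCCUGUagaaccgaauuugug
miR-196a-5p: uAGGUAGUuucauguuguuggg
miR-615-3p: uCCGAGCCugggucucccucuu
The probe sets of these genes were all under the receptor level. Mir10b was at 2.40 in DMSO and 2.26 with GSK126, Mir196a-1 at 3.81 and 3.89, Mir196a-2 at 3.97 and 3.78, and Mir615 at 4.65 and 4.84, and none passed the threshold. Whether these probe sets read the precursor or the mature miRNA was not examined.

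Cofactors and regulators of Hox genes mostly had means above the receptor level, and none passed the threshold. Of the TALE homeodomain cofactors 8 of 9 were measured and 7 were above that level, with a median change of -0.14. Of them 0 rose and 0 fell in limma, and at an unadjusted p under 0.05 there were 2 higher and 1 lower, against 4.64% and 5.93% of all genes. Meis2, of the MEIS family, read 4.69 and 4.83 in DMSO and 5.60 and 5.28 with GSK126, without overlap (change 0.68, SE 0.16, adjusted p = 0.210 in limma). Pbx3 was at 0.33 (SE 0.12), Pknox2 at -0.43 (SE 0.15) and Meis3 at -0.20 (SE 0.11), with adjusted p of 0.392, 0.390 and 0.555 in limma.

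Of 15 activators of Hox genes, all measured, 13 were above the receptor level, and 0 rose and 0 fell in limma. Their median change was -0.11, 12 means were lower, and at an unadjusted p under 0.05 there were 4 lower and 0 higher, against 5.93% and 4.64% of all genes. These were Men1 (-0.34, SE 0.08), the menin partner of MLL methyltransferases, Kdm6b (-0.36, SE 0.11), an H3K27 demethylase, Dot1l (-0.29, SE 0.10), an H3K79 methyltransferase, and Rarg (-0.34, SE 0.13), a retinoic acid receptor. Their adjusted p in limma ran from 0.217 for Men1 to 0.411 for Rarg. Of 15 Polycomb repressors 14 were measured and all 14 were above the receptor level, with a median change of -0.08 and 0 rising or falling in limma. At an unadjusted p under 0.05 there were 1 lower and 0 higher of the 14, against 5.93% and 4.64% of all genes. The lower one was Phc2, a subunit of Polycomb repressive complex 1 (-0.31, SE 0.12, adjusted p = 0.421 in limma). Ezh2, the target of the drug, read 9.47 and 9.58 in DMSO and 9.37 and 9.29 with GSK126 (adjusted p = 0.499 in limma), and its mRNA does not measure the activity that the drug blocks.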

How the data were processed

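Biotin-labelled total RNA was hybridised to 4 single-channel Affymetrix mouse arrays. Per the labels, the authors used Expression Console to summarise core exons by robust multi-array averaging (RMA), which gives log2 values, and Affymetrix Power Tools is named in the submitters' processing notes. The labels name neither the genome build nor the centring. The values (0.63 to 13.6) were used as deposited. Of 41345 probe sets 23521 carried 1 symbol, 1814 several and 16010 none; 7 probe sets pair a Hox symbol with another and were not used. Probe sets can cross-read related genes and overlapping transcripts. Changes were fitted over all 22180 named genes with limma 3.58.1 in R 4.3.3 (intensity trend, two-sided, Benjamini-Hochberg, threshold 0.05; 2 residual and 5.57 prior degrees of freedom). The fit was also run on simulated data. Their noise was independent and normal, with variances drawn from the prior fitted here, so departures from that model were not checked.

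Members and lists were chosen with earlier results of these data known. Array values are given for Hox genes above the receptor level and for the 6 with the smallest p, and for Hoxd11, Evx2 and Hotair, chosen after their values were seen; of other lists up to 4 genes with the smallest p are named, besides flanking, cluster-end and miRNA genes, Ezh2 and markers. The number of arrays limits the precision. Alternatives were no trend, a robust prior, leaving out genes under the 40th percentile of level, averaged or separate probe sets, centring, quantile normalization, a replicate block and leaving out each array.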

Additional observations from a re-analysis of the deposited data

How the results depend on the processing

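No Hox gene passed the threshold under the alternatives run, and the lowest adjusted p of any member was 0.360 (limma, Hoxd3, centred arrays). Without the trend and with 1 array left out the fit called 0 to 4 genes of all 22180, so those settings say nothing on stability. At an unadjusted p under 0.05 in limma the count of 0 became 2 without the trend (Hoxb1 and Hoxd3), beside 1964 of all 22180 genes. It became 1 with centred arrays and 1 after quantile normalization (Hoxd3 in both), beside 2936 and 2142 of all genes. Such counts are not given for fits with 1 array left out, where a group rests on a single array. Larger changes were seen there. Without GSK126 replicate 1, Hoxd3, Hoxd9 and Hoxd11 were at -0.45, -0.58 and -0.56. Without DMSO replicate 1, Hoxd10 was at 0.80. Of 36 genes, 13 kept their sign in every fit that tested them. With the replicate block the count past the threshold was 0 and the median change -0.06. That fit called 10 of all 22180 genes, so its count of 0 says little. The deviations of arrays with the same number correlated at -0.03 over genes, so the numbers were not taken as pairs.

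With 1 array left out, median changes ran from -0.15 to 0.015 for Hoxa, -0.17 to -0.018 for Hoxb, -0.078 to 0.12 for Hoxc, -0.23 to -0.017 for Hoxd, -0.21 to -0.052 for paralog groups 1 to 3, -0.18 to 0.0091 for groups 9 to 13, -0.17 to -0.071 for cofactors, -0.17 to -0.070 for activators, -0.12 to -0.034 for Polycomb repressors and -0.085 to 0.011 for genes near the clusters. Centred arrays gave -0.19 for cofactors, -0.17 for activators, -0.13 for Polycomb repressors and -0.081 for genes near the clusters, since centring lowers every change by the shift between array medians. Quantile normalization gave -0.043 for Polycomb repressors and -0.070 for genes near the clusters. Leaving out genes under the 40th percentile of level kept 14 Hox genes, 8 of them with a lower mean, and 1 Hoxc gene (-0.072). Low signal over background limits what these arrays can show for the remaining members.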
